A study of Mus musculus with 12 samples.

Results

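Regulators of G protein signalling (RGS proteins) were followed at the RNA level in mouse dorsal root ganglia, the ganglia that hold the cell bodies of sensory neurons, before and after nerve injury. The 10 members were taken by gene symbol, Rgs2, Rgs3, Rgs4, Rgs5, Rgs7, Rgs8, Rgs9, Rgs10, Rgs16 and Rgs17, out of 24060 symbols in the files. Of the 10, 9 passed a minimum of 1 RPKM in at least 3 libraries, and Rgs16 did not. RPKM is the number of reads on a gene divided by the gene's length and by the size of the library, so levels of different genes can be compared per length.

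When a receptor activates a heterotrimeric G protein, the alpha subunit binds GTP and signals until it hydrolyses it. RGS proteins bind the active alpha subunit through their shared RGS domain and speed that hydrolysis, which shortens the response to opioids, cannabinoids, noradrenaline and other ligands of sensory neurons. Among the 10, Rgs2, Rgs3, Rgs4, Rgs5, Rgs8 and Rgs16 belong to the R4 subfamily, mostly small proteins with little besides the RGS domain. Rgs7 and Rgs9 belong to the R7 subfamily, whose proteins are stable only in a complex with the G beta subunit Gnb5. Rgs17 belongs to the RZ subfamily and Rgs10 to the R12 subfamily, and both act on alpha subunits of the Gi/o class.

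All groups were male adults of the strain C57BL/6J, 9 to 10 weeks of age. The naive mice were not injured, and the other groups were sampled 1, 3 and 7 days after spared nerve injury. In this neuropathic pain model the sciatic nerve loses its tibial and common peroneal branches, tied and cut, and keeps its sural branch. Each of the 4 groups had 3 RNA-seq libraries, and the study set expression beside pain behaviour over time. Sham-operated mice were not analysed here, and operation and nerve injury cannot be told apart. The labels name neither the spinal levels of the ganglia nor the number of animals behind a library, and each p-value therefore reflects how these libraries spread.

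Library sizes, estimated from the steps between the deposited values, ran from 13626893 to 17952865 reads. Marker transcripts of sensory neurons were abundant in every library, with a summed level of 1264 to 2248 RPKM over 12 genes, none of them at 0 in any group. Of these 12, 1 was called higher at day 1, 1 higher and 1 lower at day 3, and 1 lower at day 7. Skeletal muscle markers summed to 35.7 RPKM in naive library 1 and 25.4 RPKM in day 7 library 2, against at most 6.12 RPKM in the other 10. Macrophage markers summed to 9.69 to 16.1 RPKM in naive ganglia, 13.3 to 16.6 at day 1, 26.9 to 39.1 at day 3 and 27.4 to 40.8 at day 7, over 9 genes of which 4 were called higher at days 3 and 7 and 1, C1qa, was at 0 in all naive libraries. In bulk tissue, fewer cells of a type and less RNA per cell cannot be told apart.

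The members differed far more from each other than between groups. Rgs4 alone made up 54.6% to 67.4% of the summed RPKM of the 10 members in each library. By mean level over the 12 libraries the order was Rgs4 at 257 RPKM, Rgs5 at 43.6, Rgs10 at 30.5, Rgs17 at 30.4, Rgs7 at 25.4, Rgs8 at 12.5, Rgs3 at 4.28, Rgs9 at 3.51, Rgs2 at 2.42 and Rgs16 at 0.15 RPKM. Rgs4 lay above Rgs5, Rgs7 above Rgs8, Rgs8 above Rgs3 and Rgs2 above Rgs16 with no overlap over all 12 libraries. The ranges of Rgs5 and Rgs10, Rgs10 and Rgs17, Rgs17 and Rgs7, Rgs3 and Rgs9, and Rgs9 and Rgs2 overlapped, and Rgs10 was above Rgs17 in 6 of 12 libraries. The naive mean of Rgs4 was at percentile 99.7 of the 14195 genes that passed the minimum.

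**Figure D1:**
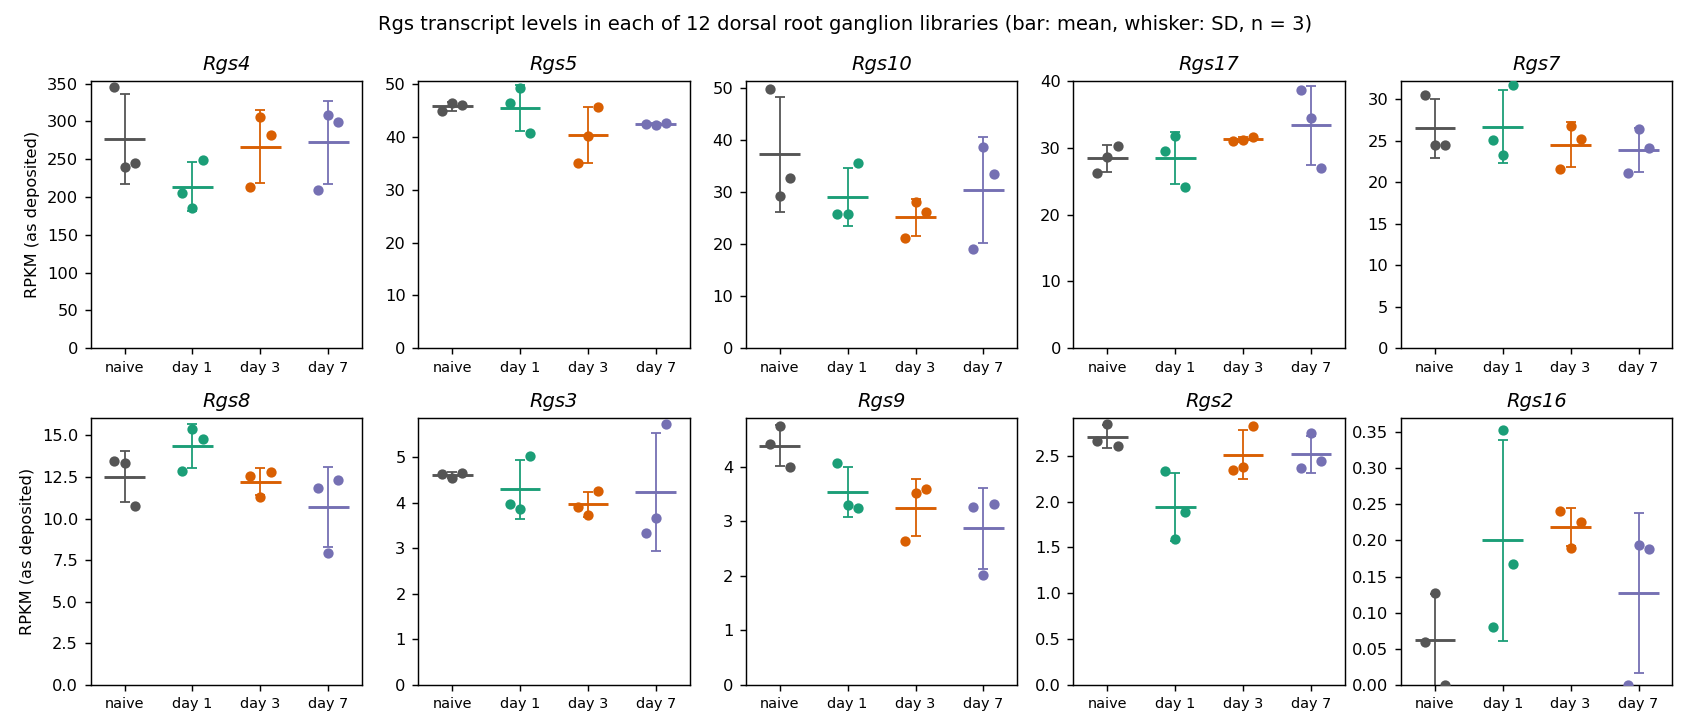
RPKM as deposited (vertical axes, each from 0) of the 10 Rgs members in 12 dorsal root ganglion libraries, 3 each from naive mice and from 1, 3 and 7 days after spared nerve injury; points are libraries, bars are means and whiskers are SDs (n = 3). Rgs4 ran from 186 to 345 RPKM and Rgs16 from 0 to 0.35 RPKM, and the Rgs4 libraries of all 4 groups overlapped.

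Limma with Benjamini-Hochberg adjustment over all 14195 genes called 0 of the 9 tested members at an adjusted p under 0.05 on any day against naive. The share of all tested genes called was 3.43% at day 1 (2.6% higher and 0.831% lower), 5.67% at day 3 (3.72% higher and 1.95% lower) and 2.92% at day 7 (2.32% higher and 0.599% lower). At such shares, 0 of 9 is a count near the background. At an unadjusted p under 0.05, the members below naive were 2 at day 1 (Rgs2 and Rgs4), 1 at day 3 (Rgs10) and 1 at day 7 (Rgs9), and none was above naive, beside 14.9%, 17.8% and 13% of all genes in either direction. Limma with array weights and voom on recovered reads each called 1 member, Rgs9 at day 7, and 0 at days 1 and 3. Over all genes these settings called 1844, 1954 and 831 (array weights) and 630, 1053 and 552 (voom) at days 1, 3 and 7. The test of any difference among the 4 groups called 0 of 9 by adjusted p and 0 of 9 by unadjusted p, with 4.78% and 16.6% of all genes called. Array weights called 1 member there, Rgs9, among 2105 genes in all, and voom called 0 members among 938 genes.

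The estimates leaned below naive. Of the 9 members, 6 at day 1, 8 at day 3 and 8 at day 7 had a log2 difference below 0. The members' median log2 difference was -0.09 at day 1, -0.13 at day 3 and -0.17 at day 7, against -0.01, 0.00 and 0.00 for all tested genes. The comparisons share their naive libraries, so the 3 medians are not independent. For the 12 sensory neuron markers the medians were -0.08, -0.24 and -0.29 on those days. Satellite glia markers had medians of -0.07, -0.02 and 0.01, and macrophage markers 0.20, 0.97 and 1.16. Whether the members differed from these lists was not tested. As ratios to naive, the 95% intervals of the members reached from 0.591 to 1.47 at day 1, from 0.502 to 1.40 at day 3 and from 0.499 to 1.48 at day 7, each interval taken gene by gene. A level 2-fold above naive lay outside every interval, and a level 2-fold below lay outside all but that of Rgs9 at day 7.

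**Figure D2:**
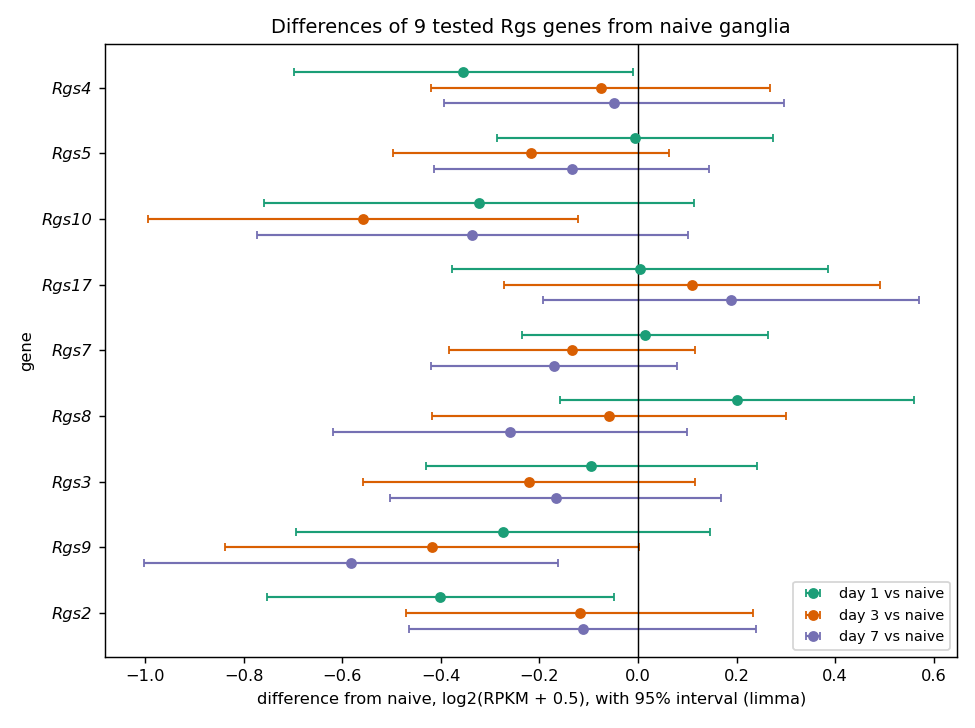
Difference of each of the 9 tested Rgs members from naive ganglia on the log2(RPKM + 0.5) scale (horizontal axis) at days 1, 3 and 7 after injury; points are limma estimates and bars are 95% intervals, unadjusted. Most points lie left of 0, from -0.58 for Rgs9 at day 7 to 0.20 for Rgs8 at day 1, and most intervals span 0.

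Rgs4 dampens Gi/o and Gq signalling and is abundant in neurons. On chromosome 1 (GRCm38) it lies at 169741477 to 169747642 on the minus strand, and its neighbour Rgs5 at 169655501 to 169695813 on the plus strand, 45.7 kb apart with their ends facing and no annotated gene between. The first 24 coding bases are shown because they bear on what an RNA level can say about these proteins: Rgs4, Rgs5 and Rgs16 carry a cysteine codon right after the start codon, and Rgs8, a relative of the same subfamily, does not. The second codon is in capitals, and the reading frames are from GENCODE M21.
Rgs4: atgTGCaaaggacttgcaggtctg
Rgs5: atgTGTaagggactggcagctctg
Rgs16: atgTGCcgcaccctagccaccttc
Rgs8: atgGCTgccttactgatgccacgc
A cysteine at that place is known to become the new amino terminus, and its oxidation marks the protein for rapid destruction, so the amount of these proteins is set by more than their RNA. Of the 10 members, 3 had it, in every coding transcript annotated for them. Protein was not measured here.

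The RefSeq promoters (GRCm38.p6) of the most and the least abundant member, Rgs4 at chr1:169747593-169747892 on the minus strand and Rgs16 at chr1:153740103-153740402 on the plus strand, are set side by side from 250 bases before to 50 bases after the start. Capitals mark TATAAA, the core of a TATA box.
Rgs4 promoter: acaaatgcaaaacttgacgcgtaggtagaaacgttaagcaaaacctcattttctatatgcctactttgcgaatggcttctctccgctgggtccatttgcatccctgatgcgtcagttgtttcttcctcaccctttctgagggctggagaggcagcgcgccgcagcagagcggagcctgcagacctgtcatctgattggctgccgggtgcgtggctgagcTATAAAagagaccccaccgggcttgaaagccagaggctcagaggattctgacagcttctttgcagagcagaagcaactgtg
Rgs16 promoter: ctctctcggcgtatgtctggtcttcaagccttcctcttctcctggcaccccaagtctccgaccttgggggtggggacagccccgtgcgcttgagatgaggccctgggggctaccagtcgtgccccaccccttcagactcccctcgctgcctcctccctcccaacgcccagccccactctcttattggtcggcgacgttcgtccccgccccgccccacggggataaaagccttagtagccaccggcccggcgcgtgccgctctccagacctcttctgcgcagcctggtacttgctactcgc
TATAAA stood 31 bases before the Rgs4 start and was not found in the Rgs16 window. That window holds gataaa, different in 1 letter, at nearly the same distance before its start. All 10 members had a RefSeq promoter, 13 windows in all, and both strands were searched. TATAAA was in 4 of the 13 (Rgs4, Rgs9 and both promoters of Rgs3), against 13.6% of 32851 promoters of the same length. The Rgs9 match lay 195 bases before the start, and those of Rgs3 100 and 177 bases, farther than that of Rgs4. The cAMP response element TGACGTCA was in 0 of 13 (1.79% of all promoters), the AP-1 site TGACTCA in 1 of 13, that of Rgs17 (5.2%), and the E-box CACGTG in 1 of 13, that of Rgs7 (7.15%). None of these motifs contains another, and a match is a run of letters, not a shown binding site.

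Rgs4 stood at 345, 239 and 245 RPKM in naive libraries 1, 2 and 3, and at 205, 186 and 249 RPKM at day 1. It stood at 213, 305 and 282 RPKM at day 3 and at 209, 309 and 299 RPKM at day 7. As deposited every group overlapped every other, and naive library 1 was the highest of all, while after scaling the day 1 libraries lay below the naive ones. The group means were 276 ± 59.7 RPKM in naive ganglia, 213 ± 32.3 at day 1, 267 ± 48.3 at day 3 and 272 ± 55.3 at day 7 (SD, n = 3). On the log2(RPKM + 0.5) scale, after scaling of the libraries, the limma difference from naive was -0.35 at day 1 (SE 0.16, adjusted p = 0.316), -0.08 at day 3 (adjusted p = 0.864) and -0.05 at day 7 (adjusted p = 0.957). Without naive library 1 the day 1 difference was -0.22 (adjusted p = 0.640). Over all omissions of a single library it ran from -0.43 to -0.22 (limma adjusted p from 0.214 to 0.640).

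Set beside the markers of sensory neurons, naive library 1 had the highest neuron marker sum (2248 RPKM) and the highest Rgs4 and Rgs10. Day 7 library 1 had the lowest sum (1264 RPKM), the lowest Rgs10 and the lowest Rgs4 of its group. Other libraries did not keep that order: day 1 library 3 had a sum of 2107 RPKM and Rgs4 at 249, while day 7 library 2 had a sum of 1823 RPKM and Rgs4 at 309. Most single markers were lower in day 7 library 1 than in naive library 1, such as Snap25 at 323 against 772 RPKM. Only Scn9a, a sodium channel of nociceptors, at 191 against 186 RPKM, and Elavl3, at 15.9 against 13.6 RPKM, were higher there. The marker sums of myelinating Schwann cells were 1539 and 863 RPKM in those libraries, and those of satellite glia 348 and 240 RPKM. The part of cell composition in the group differences was not tested.

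**Figure D3:**
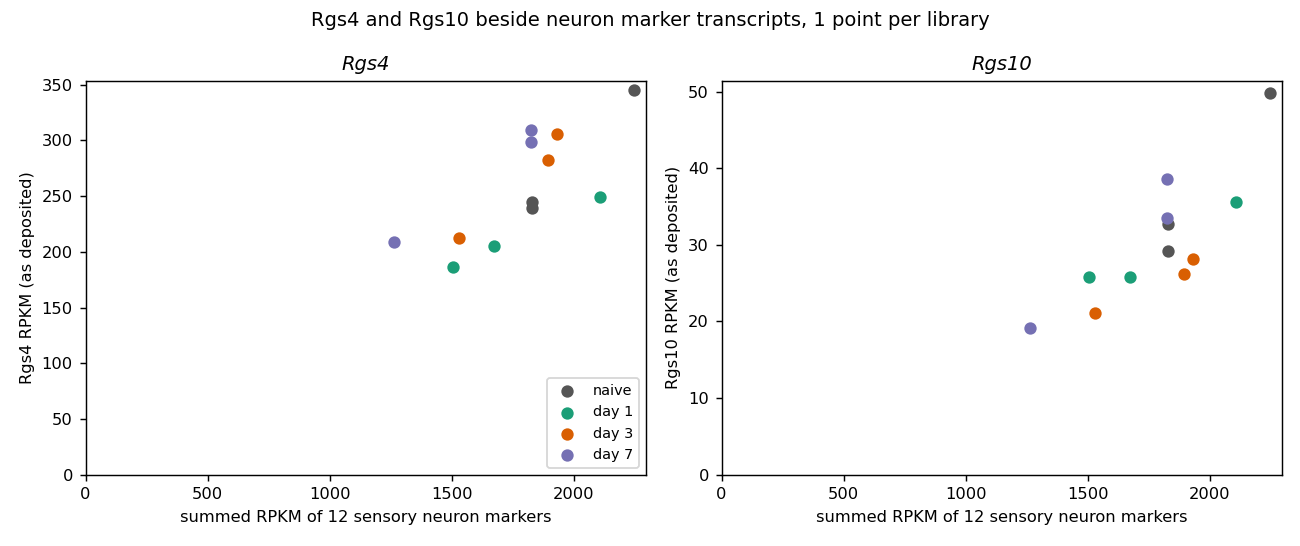
RPKM of Rgs4 (left) and Rgs10 (right) against the summed RPKM of 12 sensory neuron markers (horizontal axes), 1 point for each of 12 libraries, coloured by group; all axes start at 0. The leftmost point is day 7 library 1 at a marker sum of 1264 RPKM and the rightmost is naive library 1 at 2248 RPKM, which is the highest point in both panels, and the points between do not keep 1 order.

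Rgs5, the neighbour of Rgs4, is widely used as a marker of pericytes, the contractile cells around capillaries. Its range over libraries was the narrowest of the 9 tested members, with a highest value 1.40 times the lowest. It stood at 44.9, 46.5 and 46.1 RPKM in naive libraries, 46.6, 49.3 and 40.7 at day 1, 35.2, 40.3 and 45.7 at day 3 and 42.5, 42.2 and 42.7 at day 7. The day 7 libraries lay just below the naive ones as deposited and overlapped them after scaling. The differences from naive were -0.01, -0.22 and -0.13 on the log2 scale at days 1, 3 and 7 (limma adjusted p = 0.988, 0.433 and 0.782). Summed markers of pericytes and vascular smooth muscle over 12 genes ran from 22.3 to 39.9 RPKM, with the highest in day 7 library 3, where Rgs5 stood at 42.7 RPKM. The ratio of Rgs4 to Rgs5 ran from 3.77 in day 1 library 2 to 7.69 in naive library 1.

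Rgs8 and Rgs16 form the other adjacent pair, 40.0 kb apart on the plus strand of chromosome 1 with no coding gene between, Rgs8 at 153653025 to 153700323 and Rgs16 at 153740349 to 153745468. Rgs8, best known from cerebellar Purkinje cells, stood at 13.5, 13.3 and 10.8 RPKM in naive libraries and 12.9, 15.4 and 14.8 at day 1. It stood at 12.5, 11.3 and 12.8 RPKM at day 3 and 11.8, 7.95 and 12.3 at day 7. Every day 7 library lay below every day 1 library, while both groups overlapped naive. Against naive the log2 differences were 0.20 at day 1 and -0.26 at day 7 (limma adjusted p = 0.661 and 0.594). Between day 7 and day 1 the difference was -0.46 (SE 0.17, unadjusted p = 0.0156, adjusted p = 0.308), and -0.25 without day 7 library 2 (adjusted p = 0.677). Over all omissions of a single library it ran from -0.61 to -0.25 (limma adjusted p from 0.118 to 0.677).

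Rgs16, which many cell types induce on stimulation, was near the limit of what these libraries could show. It had 2, 5 and 0 reads in naive libraries, 3, 12 and 7 at day 1, 9, 7 and 8 at day 3 and 0, 8 and 6 at day 7, or at most 0.35 RPKM. The 3 day 3 libraries lay above the 3 naive ones, and the other injured groups overlapped naive. With the minimum level dropped, limma tested it among 21597 genes and gave a difference of 0.35 at day 3 (adjusted p = 0.367), with an adjusted p of 0.520 at day 1 and 0.882 at day 7. In libraries where both could be set as a ratio, Rgs8 was 41.0 to 226 times Rgs16 per length.

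Rgs2 is the member most selective for Gq and is induced early in many stimulated cells. It stood at 2.67, 2.85 and 2.61 RPKM in naive libraries and at 2.34, 1.59 and 1.89 RPKM at day 1, with every day 1 library below every naive one. Day 3, at 2.34, 2.38 and 2.82 RPKM, and day 7, at 2.37, 2.75 and 2.44 RPKM, overlapped naive. The log2 difference at day 1 was -0.40 (SE 0.16, unadjusted p = 0.0285, limma adjusted p = 0.256), and it was -0.12 at day 3 and -0.11 at day 7. The Rgs2 values rest on 70 to 146 reads per library.

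Rgs3 acts on Gi and Gq alpha subunits and, in its long forms, binds G beta gamma dimers. Its naive libraries agreed closely, at 4.63, 4.54 and 4.66 RPKM. The values were 3.98, 3.87 and 5.03 RPKM at day 1, 3.90, 3.73 and 4.27 at day 3 and 3.33, 3.66 and 5.73 at day 7. The day 3 libraries all lay below naive, while days 1 and 7 each had 1 library above it, library 3 in both cases. The log2 differences were -0.09, -0.22 and -0.17 at days 1, 3 and 7 (limma adjusted p = 0.851, 0.527 and 0.770).

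Rgs9, of the R7 subfamily, ends the light response in photoreceptors in a short form and limits dopamine and opioid signalling in the striatum in a long form. It stood at 4.42, 4.76 and 4.01 RPKM in naive libraries and at 4.07, 3.30 and 3.25 RPKM at day 1, which overlapped naive. It stood at 2.65, 3.51 and 3.59 RPKM at day 3 and at 3.28, 2.01 and 3.33 RPKM at day 7, and at both times every library lay below every naive one. The group means were 4.39 ± 0.37, 3.54 ± 0.46, 3.25 ± 0.52 and 2.87 ± 0.75 RPKM in naive, day 1, day 3 and day 7 ganglia (SD, n = 3). The log2 differences from naive were -0.27 at day 1 (adjusted p = 0.584), -0.42 at day 3 (adjusted p = 0.284) and -0.58 at day 7 (SE 0.20, unadjusted p = 0.00999, adjusted p = 0.163), all by limma. The day 7 ratio to naive was 0.668, with a 95% interval of 0.499 to 0.893. Without day 7 library 2, a library with muscle transcripts and the lowest Rgs9 value, the difference was -0.37 (adjusted p = 0.476), while array weights gave -0.73 (adjusted p = 0.0293) and voom -0.69 (adjusted p = 0.0292). With single libraries left out in turn, the day 7 difference ran from -0.74 to -0.37 (limma adjusted p from 0.0617 to 0.476).

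Rgs7 is the other R7 member and a regulator of Gi/o signalling in neurons. After scaling, on the log2 scale, it had the smallest spread within groups of the 9 tested members (SD 0.12). It stood at 30.5, 24.4 and 24.5 RPKM in naive libraries, 25.1, 23.3 and 31.6 at day 1, 21.5, 26.8 and 25.2 at day 3 and 21.1, 26.3 and 24.1 at day 7. All groups overlapped. The log2 differences from naive were 0.01, -0.13 and -0.17 (limma adjusted p = 0.974, 0.623 and 0.629), and the ratio to naive at day 7 was 0.889 with a 95% interval of 0.747 to 1.06.

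Rgs17, of the RZ subfamily, is known to restrain signalling of the mu opioid receptor. Among the 9 tested members it was the only gene with an estimate above 0 on all 3 days, at 0.00, 0.11 and 0.19 on the log2 scale (limma adjusted p = 0.996, 0.817 and 0.770). It stood at 26.3, 28.7 and 30.3 RPKM in naive libraries, 29.5, 31.8 and 24.1 at day 1, 31.0, 31.2 and 31.6 at day 3 and 38.6, 34.5 and 27.0 at day 7. The day 3 libraries lay just above naive as deposited and overlapped it after scaling.

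Rgs10 is a small Gi/o regulator that is also abundant in microglia and macrophages. Among the 9 tested members it varied most between libraries of a group on the log2 scale after scaling (SD 0.29). It stood at 49.8, 29.2 and 32.8 RPKM in naive libraries, 25.8, 25.8 and 35.6 at day 1, 21.2, 28.1 and 26.2 at day 3 and 19.1, 38.6 and 33.5 at day 7. The day 3 libraries all lay below naive, and the other injured groups overlapped it. The log2 differences were -0.32, -0.56 and -0.34 at days 1, 3 and 7 (limma adjusted p = 0.512, 0.145 and 0.558), and the unadjusted p at day 3 was 0.0161. Without naive library 1 and day 7 library 2, the libraries with muscle transcripts, the day 3 difference was -0.37 (adjusted p = 0.305). With single libraries left out in turn, the day 3 difference ran from -0.69 to -0.37 (limma adjusted p from 0.0510 to 0.383). Macrophage markers summed higher at days 3 and 7 than in any naive library, while Rgs10 at day 3 was below its naive range. The part of these cells in the Rgs10 values was not tested.

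Counted together, tested members whose 3 injured libraries all lay on the same side of the 3 naive ones, as deposited, numbered 1 of 9 at day 1, 4 of 9 at day 3 and 2 of 9 at day 7. The share of all tested genes with such a separation was 22.7%, 26.5% and 18.1%. They were Rgs2 at day 1, Rgs3, Rgs9, Rgs10 and Rgs17 at day 3, and Rgs5 and Rgs9 at day 7. Of these, all lay below naive except Rgs17. Rgs16, which was not tested, also lay above naive at day 3.

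Between days after injury, limma called 0 of 9 members in each of the 3 comparisons. The share of all genes called was 0.507% between day 3 and day 1, 0% between day 7 and day 3 and 0.972% between day 7 and day 1. At an unadjusted p under 0.05 the counts were 0, 0 and 1 of 9, the last being Rgs8, beside 9.42%, 5.04% and 10.4% of all genes. Array weights and voom also called 0 members in each. Rgs4 was 0.31 higher at day 7 than at day 1 on the log2 scale (adjusted p = 0.546), the largest positive member difference between days, and Rgs8 was the largest negative one.

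Members whose levels went with those of other genes over the 12 libraries were described for the 3 members with the smallest p in the test of all 4 groups, with Pearson's r of log2(RPKM + 0.5). The genes nearest to Rgs9 were Tle4 (r = 0.90), Tbx2 (0.86) and Lrp1b (0.85). Those nearest to Rgs8 were Med12 (0.94), Arid3b (0.91) and Bcorl1 (0.90). Those nearest to Rgs10 were Fgf13 (0.94), S100b (0.93) and Rit2 (0.93). The 12 points share library, depth and group, and the genes were picked as the highest of all, so r is a description.

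Among the other RGS genes, limma called 2 against naive. Rgs20, another RZ gene and a regulator of Gz, rose on all 3 days, and Rgs6, of the R7 subfamily, fell at days 3 and 7. Of 14 other genes with an RGS domain, 8 passed the minimum level, with 1 higher at day 1, and 1 higher and 1 lower at days 3 and 7. Array weights called 2, 3 and 3 of the 8 at days 1, 3 and 7, adding Rgs6 at day 1 and Rgs11 at days 3 and 7, and voom called 1, 3 and 2, adding Rgs11 at day 3. Over all genes limma called 3.43%, 5.67% and 2.92% on those days. Array weights called 1844, 1954 and 831 genes in all, and voom 630, 1053 and 552. The same all-gene figures stand beside the counts of the lists that follow. The median log2 difference of the 8 was 0.07, -0.03 and -0.12 at days 1, 3 and 7. Whether Rgs20 and Rgs17, or Rgs6 and its relatives Rgs7 and Rgs9, differed in their response was not tested.

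Rgs20 stood at 2.42, 2.77 and 2.94 RPKM in naive libraries, 6.22, 5.86 and 6.98 at day 1, 6.11, 6.32 and 5.71 at day 3 and 5.50, 5.58 and 4.15 at day 7. Every injured library lay above every naive one. The log2 difference was 1.10 at day 1 (SE 0.16, adjusted p = 0.00137), 1.00 at day 3 (adjusted p = 0.00178) and 0.77 at day 7 (adjusted p = 0.0179), by limma. The day 7 call was lost without naive library 1 (adjusted p = 0.0864), naive library 2 (0.0506), day 7 library 1 (0.0546) or day 7 library 2 (0.0759), and the day 1 and day 3 calls held without any single library. The start of Rgs20 overlaps that of Atp6v1h on the opposite strand, and since no source used here states the strand of the libraries, reads there cannot be told apart.

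Rgs6 stood at 5.76, 5.49 and 4.95 RPKM in naive libraries, 3.64, 3.79 and 3.97 at day 1, 3.25, 3.67 and 3.62 at day 3 and 2.56, 3.41 and 3.22 at day 7. Again no injured library reached the naive range. The log2 difference was -0.45 at day 1 (adjusted p = 0.0845), -0.58 at day 3 (adjusted p = 0.0159) and -0.76 at day 7 (SE 0.13, adjusted p = 0.00406), by limma. At day 1 it was called with array weights (adjusted p = 0.0138) and without the variance trend and robust moderation (0.0408). The day 3 call was lost without naive library 1 (adjusted p = 0.0553), naive library 2 (0.0781) or day 3 library 1 (0.0583), and the day 7 call held without any single library. Rgs11, the last R7 gene, had estimates of -0.32, -0.63 and -0.63 that did not pass in limma without weights (adjusted p = 0.474, 0.0745 and 0.107).

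**Figure D4:**
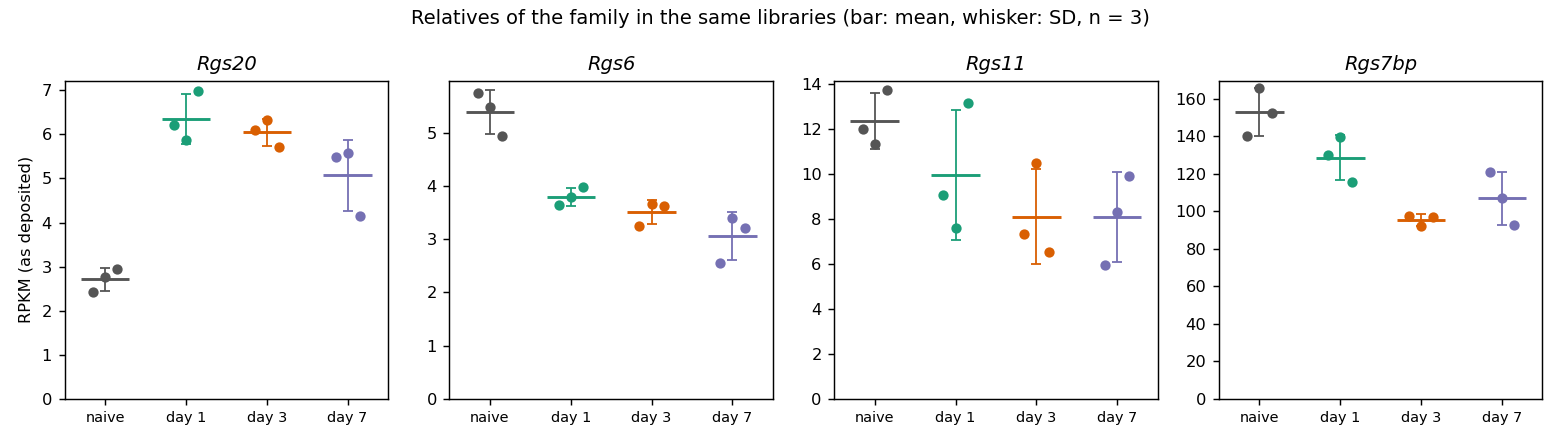
RPKM as deposited (vertical axes, each from 0) of Rgs20, Rgs6, Rgs11 and Rgs7bp in the same 12 libraries by group; points are libraries, bars are means and whiskers are SDs (n = 3). Rgs20 was above its naive range of 2.42 to 2.94 RPKM in all 9 injured libraries, and Rgs6 was below its naive range of 4.95 to 5.76 RPKM in all 9.

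The partners that R7 proteins need were measured too. Gnb5, the obligate beta subunit, stood at 11.9 ± 0.55 RPKM in naive ganglia (SD, n = 3), and its log2 differences were 0.06, -0.01 and 0.09 (limma adjusted p = 0.862, 0.981 and 0.844). Rgs7bp, a palmitoylated anchor that holds R7 complexes at the membrane, stood at 140, 166 and 153 RPKM in naive libraries and fell to 97.3, 91.9 and 96.8 RPKM at day 3, a log2 difference of -0.70 (adjusted p = 0.0212). That call was lost without naive library 2 (adjusted p = 0.0967), naive library 3 (0.0793), day 3 library 2 (0.0932) or day 3 library 3 (0.0685). At day 7 Rgs7bp stood at 121, 107 and 92.7 RPKM (log2 difference -0.55, adjusted p = 0.111). Of 5 partners, 3 passed the minimum level, and of these 0, 1 and 0 were called at days 1, 3 and 7, against 0, 2 and 1 at an unadjusted p under 0.05. The unadjusted share of all genes was 14.9%, 17.8% and 13%. Voom and array weights called 0, 1 and 1.

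The G protein subunits gave 1 call against naive. Of 16 alpha subunits 13 were tested, with a median log2 difference of 0.01, -0.03 and -0.06 at days 1, 3 and 7, and the single call by limma was a fall of Gnai1, an inhibitory alpha subunit, at day 1 (log2 difference -0.49, adjusted p = 0.0368). It was lost when any single naive or day 1 library was left out (adjusted p = 0.0863 to 0.139), and without day 3 library 2 (0.0520) or 3 (0.0574). At days 3 and 7, 0 alpha subunits were called, against 3 and 2 at an unadjusted p under 0.05, 3 and 0 with array weights and 1 and 0 with voom. Of 16 beta and gamma subunits 12 were tested, and limma, voom and array weights called 0 against naive on every day, with 0, 1 and 1 at an unadjusted p under 0.05. For both lists, the unadjusted share of all genes was 14.9%, 17.8% and 13% at days 1, 3 and 7. Gng2, a gamma subunit, was called in the limma test of all 4 groups (adjusted p = 0.0314), at 82.2 ± 2.36 RPKM in naive ganglia, 70.9 ± 4.50 at day 1, 97.4 ± 5.93 at day 3 and 101 ± 8.29 at day 7 (SD, n = 3).

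Among receptor kinases and arrestins, which switch off receptors rather than G proteins, 8 were tested and Arrb1 was the only call on each day. Arrb1, the beta-arrestin 1 gene, rose from 46.5 ± 1.36 RPKM in naive ganglia to 66.0 ± 3.01 at day 1, 76.2 ± 3.15 at day 3 and 64.6 ± 0.26 at day 7 (SD, n = 3). The log2 differences were 0.51, 0.68 and 0.44 (limma adjusted p = 0.0230, 0.00211 and 0.0496). The day 3 call held without any single library, the day 1 call was lost without naive library 1, 2 or 3 or day 1 library 1 or 2 (adjusted p = 0.0584 to 0.130), and the day 7 call was lost whichever library was left out (adjusted p = 0.0506 to 0.182). Of other G protein modulators 6 were tested, and at day 3 Gpsm1, an activator of free G beta gamma, rose by 0.66 (adjusted p = 0.0360) and Gprin3 fell by 0.77 (adjusted p = 0.00921) on the log2 scale. The Gpsm1 call was lost without naive library 1, 2 or 3 or day 3 library 2 or 3 (adjusted p = 0.0813 to 0.133). At days 1 and 7 limma called 0 modulators, with 2 and 3 at an unadjusted p under 0.05, 1 and 1 with array weights and 0 and 0 with voom. Beside these, 14.9% and 13% of all genes passed the unadjusted threshold, and array weights called 1844 and 831 genes.

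Of the effectors that G proteins of these classes drive, 5 of 8 genes for GIRK channels and phospholipase C beta were tested, with medians of -0.24, -0.40 and -0.27 on the log2 scale at days 1, 3 and 7. Kcnj3, a GIRK channel subunit, fell from 10.0 ± 0.41 RPKM to 5.19 ± 1.62 at day 1 and 6.00 ± 0.34 at day 3 (SD, n = 3), with log2 differences of -0.91 and -0.72 (limma adjusted p = 0.0170 and 0.0422). Both calls were lost without naive library 1, 2 or 3 (adjusted p = 0.0528, 0.0584 and 0.0727 at day 1 and 0.0891, 0.118 and 0.141 at day 3), and without some injured libraries. Plcb3, a phospholipase C driven by Gq and by G beta gamma, fell by 0.68 at day 3 (adjusted p = 0.00763), and that call held without any single library. At day 7 limma and voom called 0 of the 5, with 2 at an unadjusted p under 0.05, and array weights called 1. Beside these, 13% of all genes passed the unadjusted threshold, and array weights called 831 genes.

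The receptors whose signals these RGS proteins shorten gave 2, 5 and 1 calls at days 1, 3 and 7 by limma, 5, 9 and 5 with array weights and 6, 7 and 4 with voom. At an unadjusted p under 0.05 the counts were 8, 13 and 10, beside 14.9%, 17.8% and 13% of all genes. Over all genes limma called 3.43%, 5.67% and 2.92%. Array weights called 1844, 1954 and 831 of all genes, and voom 630, 1053 and 552. Of 20 Gi/o-coupled receptors 17 were tested, with medians of -0.27, -0.31 and -0.40 on the log2 scale at days 1, 3 and 7. In limma without weights, 1 rose at day 1 (Npy1r) and 1 fell (Cnr1). At day 3, 1 rose (Npy1r) and 4 fell (Chrm2, Galr1, Oprd1 and Oprm1), and at day 7, 1 fell (Oprd1). Npy1r, a neuropeptide Y receptor, rose from 12.1 ± 1.56 to 21.2 ± 2.56 RPKM at day 1 (SD, n = 3), a log2 difference of 0.80 (adjusted p = 0.00177) that held without any single library. Chrm2, the M2 muscarinic receptor, fell from 7.15 ± 0.57 to 2.96 ± 0.52 RPKM at day 3, a log2 difference of -1.18 (adjusted p = 0.00497) that also held. Oprd1, the delta opioid receptor, fell by 0.97 at day 3 (adjusted p = 0.0229) and by 1.06 at day 7 (adjusted p = 0.0207). The day 3 call was lost without naive library 2 or 3 or day 3 library 1, 2 or 3 (adjusted p = 0.0509 to 0.119), and the day 7 call without naive library 2 or 3 or day 7 library 2 or 3 (adjusted p = 0.0780 to 0.113). The calls of Npy1r and Oprm1 at day 3 were lost without naive library 2 or 3 or day 3 library 2 or 3, and those of Cnr1 at day 1 and Galr1 at day 3 whichever library of the groups compared was left out. That of Oprm1 also ended without day 1 library 1 (adjusted p = 0.0634) or day 7 library 3 (0.0508). The Galr1 call also ended without day 7 library 2 (0.0522). Summed neuron markers were 1828 to 2248 RPKM in naive ganglia, 1527 to 1932 at day 3 and 1264 to 1825 at day 7, and their part in these differences was not tested.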

How the data were processed

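RNA from 12 ganglion samples was amplified with a kit for 500 pg of input and sequenced, per the labels' protocols. The submitters' processing notes name bcl2fastq 2.17, STAR, HTSeq, edgeR and limma and the build mm10, with no role stated. For counting options and strand the sources used here give nothing. From the values themselves, the deposited numbers are RPKM computed by the authors: whole reads could be recovered for 21594 of 21597 detected genes (tolerance 0.05 reads). The library sizes and read counts printed here are estimates from that recovery. Group and replicate came from the sample titles.

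Printed levels are RPKM as deposited. For tests, genes with at least 1 RPKM in at least 3 libraries were kept (14195), libraries were scaled by trimmed means of log ratios (trimming 30% of ratios and 5% of levels; factors 0.909 to 1.09), and log2(RPKM + 0.5) was fitted in limma 3.58.1 (R 4.3.3, statmod 1.5.0) with 4 group means, 8 residual degrees of freedom, a variance trend and robust moderation. This scale understates the change of low genes. P-values are two-sided and were adjusted by Benjamini-Hochberg over the 14195 genes, with calls at an adjusted p under 0.05. The method was tested on simulated data with planted differences larger than any estimated for the members. That test does not cover differences of the members' size. An exact permutation test of 3 against 3 libraries cannot go below 0.1, so no gene was tested in that way. Array weights, voom on the recovered reads, other pseudocounts, filters and scalings, a replicate block and leaving out libraries were tried.

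The members, the related lists and the marker lists were chosen with earlier results of these data known. Named besides the members are all called RGS genes and R7 partners, and up to 3 called genes per related list with the smallest p of the 4-group test; Cnr1, Galr1, Gng2 and Oprm1 were added after their values were seen, to complete counts. Grk2, Grk3 and Ric8a were not found by those symbols, though Adrbk1 and Adrbk2 were. Positions are from GENCODE M21 (GRCm38), in which 22776 symbols (94.7%) were found. Antisense genes overlap Rgs3, Rgs8 and Rgs16, and also the called genes Rgs6 and Rgs20, and without strand their reads cannot be told apart.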

Additional observations from a re-analysis of the deposited data

How the results depend on the processing

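For the members, 1278 results were recomputed under other settings, and 2 of them passed the threshold, both for Rgs9 at day 7: -0.73 with array weights (adjusted p = 0.0293) and -0.69 with voom on recovered reads (adjusted p = 0.0292). These settings moved the count of members called at day 7 from 0 to 1, and array weights also moved that of the 4-group test from 0 to 1 (Rgs9, adjusted p = 0.0499); the cause was not tested. Without a single library the counts of members called were 0 to 0 in every comparison. The sign of 47 member results differed from the value given, among differences no larger than 0.20 on the log2 scale. Counts over all genes moved more: with array weights 1844, 1954 and 831 genes were called at days 1, 3 and 7, against 487, 805 and 415, and without single libraries 218 to 618, 449 to 1085 and 235 to 519. Without the libraries with muscle transcripts the counts were 277, 615 and 166, and with only the compared groups in the model 497, 1130 and 252. Between days the counts over all settings were 13 to 349 (day 3 and day 1, 72 as reported), 0 to 4 (day 7 and day 3, 0) and 38 to 293 (day 7 and day 1, 138), and for the 4-group test 383 to 2105 (679). With the replicate number as a block, 0 members were called in every comparison and 362, 652 and 323 genes at days 1, 3 and 7; the block also ended the calls of Gnai1 at day 1 (adjusted p = 0.0602), Arrb1 at days 1 and 7 (0.0519 and 0.0966), Kcnj3, Oprm1 and Npy1r at day 3 (0.0655, 0.0761 and 0.0687) and Cnr1 at day 1 (0.0623). Whether the replicate numbers pair the libraries is not stated, and correlations cannot settle it. Deviations of same-numbered libraries correlated at -0.34 to 0.23, with 3 of 18 pairs above 0.1. For differently numbered ones the range was -0.35 to 0.30, with 11 of 36 pairs above 0.1. In all, 4 of 12 libraries correlated best with their own number. Without the libraries with muscle transcripts the calls of Rgs20 at day 7 (adjusted p = 0.235), Rgs6 at day 3 (0.0616), Gnai1, Arrb1 and Cnr1 at day 1 (0.116, 0.124 and 0.0826), Kcnj3 at days 1 and 3 (0.0571 and 0.0932), Gpsm1, Npy1r and Galr1 at day 3 (0.130, 0.0535 and 0.108) and Arrb1 and Oprd1 at day 7 (0.30 and 0.0939) ended. The Rgs20 and Arrb1 calls at day 7 also ended with only the compared groups in the model (0.0973 and 0.208). Dropping the minimum level ended the calls of Gnai1 and Cnr1 at day 1 and Arrb1 at day 7 (0.0503 to 0.0633). It also ended those of Kcnj3, Oprm1, Npy1r, Gpsm1 and Galr1 at day 3 (0.0507 to 0.0804). Without the variance trend and robust moderation the same calls ended, except that of Gpsm1 (0.05002 to 0.0769). Leaving the libraries unscaled ended the day 3 calls of Gpsm1, Npy1r and Galr1 (0.0651 to 0.0696). A pseudocount of 0.1 ended the Galr1 call at day 3 (0.0656). The Arrb1 call at day 7 ended with a pseudocount of 1 (0.0507) and with scaling by median ratios (0.0535). Rgs16, at 0 to 12 reads, and Rgs2, at 70 to 146, are limited by depth.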
